A study of Mus musculus with 10 samples.

Results

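The 5 tumours described here are subcutaneous xenografts of LNCaP, an established androgen-sensitive human prostate cancer line derived from a lymph node metastasis, taken from mice that had received control sip-T. They were chosen by their sample labels alone, as the 5 control libraries among the 10 libraries of the series, and the other libraries were not analysed here. The hosts were NSG mice, labelled NOD.Cg-Prkdcscid Il2rgtm1Wjl/SzJ, a strain without T, B and NK cells of its own. Sip-T (sipuleucel-T) is a cell vaccine, made from human blood cells that were exposed in culture to the prostate antigen acid phosphatase joined to the cytokine GM-CSF. It was given here without IL-15 treatment, as weekly intraperitoneal injections of 100 µl in PBS, and tumours were collected on day 7 after the last one. The study's text adds that control mice were sham dosed with PBS, the vehicle. The labels give the tissue as skin tumour, the cell type as epithelial prostate cancer and the organism as mouse. The count and FPKM tables list human genes, so every value concerns reads assigned to the human genome. Sex and age of the mice, the donors of the blood cells and the passage of the line were not stated in the labels. No untreated tumour enters the description, so the values give the state of tumours under control sip-T and not the effect of sip-T.

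The glandular cells of the prostate are luminal cells, whose identity depends on androgen signalling and on transcription factors such as FOXA1 and HOXB13. Androgen drives secreted kallikreins, among them KLK3 (prostate-specific antigen), and genes for lipid and polyamine synthesis. Luminal prostate tissue is known for exporting citrate and for an active synthesis of fatty acids and cholesterol.

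The libraries held 15076375, 14453782, 15722098, 17467130 and 15191728 counts in tumours 1 to 5 (15582223 ± 1146101, SD, n = 5). A count of 0 therefore allows up to 0.172 to 0.208 counts-per-million (CPM), the CPM that 3 counts make in each library, and such limits cover counting error only. Between 27776 and 30615 genes had at least 1 count in a library, and protein-coding genes took 94.8% to 95.9% of the counts. Each library came from 1 tumour, and the labels do not say whether each tumour had its own mouse, so the spread between libraries may in part be technical. As a check for a library deposited more than once, the counts of each pair were compared, and none agreed within sampling noise, with a chi-square per degree of freedom of 26.7 to 57.9 over the 10 pairs. The leading axes of a principal component analysis held 32.4% and 28.3% of the variance, with tumours 4 and 5 at the ends of the first and tumours 2 and 5 at the ends of the second.

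The level of a gene is given as FPKM (fragments-per-kilobase-per-million, so per length of gene and size of library), as deposited. A gene was counted as expressed when its FPKM was at least 1 in each of the 5 tumours. This held for 11913 of 58216 genes (20.5%) and for 9858 of 19906 protein-coding genes (49.5%). That 49.5% is the share to set beside each count of expressed protein-coding list members below. The median level of an expressed protein-coding gene was 8.19 FPKM, and 270 protein-coding genes had a median above 100 FPKM. Reads that fall in overlapping genes can be lost or shared. Beside the genes marked below, FADS2 (with FEN1), PYCR1 (with MYADML2) and AMACR (with C1QTNF3-AMACR) overlap another annotated gene on their strand. So do LDHA, SLC2A1, COX8A, OAZ1, NR2F6, NR3C1, SCHLAP1 and LRRTM3. Some others overlap further genes, among them small RNA genes and pseudogenes.

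The labelled cell type was checked first. KLK3 (chromosome 19, 50854915 to 50860764, plus strand, hg38) had FPKM values of 1166, 653, 819, 948 and 1061 in tumours 1 to 5 (929 ± 201, SD, n = 5). It was the ninth most abundant nuclear protein-coding gene, highest in tumour 1 and lowest in tumour 2. The difference between them was 1.92-fold on the scaled CPM scale, which is not the ratio of these FPKM values. FOLH1 (chromosome 11, 49146635 to 49208670, minus strand), which encodes prostate-specific membrane antigen, had values of 140.4, 202, 218, 139 and 169 (174 ± 35.8, SD, n = 5). Both genes were abundant in each of the 5 tumours, as the label of prostate cancer cells requires.

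Transcripts of the mitochondrial genome were the most abundant. They took 5.89% to 7.76% of all counts, and MT-CO1, a subunit of cytochrome c oxidase, led the whole table at 11251, 9865, 11294, 11277 and 12717 FPKM. MT-CO3 and MT-CO2, further subunits of that enzyme, had medians of 8008 and 7976 FPKM, and MT-ATP6 of the ATP synthase 6211. All 13 mitochondrially encoded protein genes were expressed, the lowest being MT-ATP8 at a median of 239.9 FPKM. The ribosomal RNA MT-RNR2 had a median of 6094 FPKM. The smaller ribosomal RNA, MT-RNR1, had values of 2098, 1776, 2524, 2233 and 4288 and was highest in tumour 5. MT-ND4L and MT-ATP8 overlap MT-ND4 and MT-ATP6, so the split of reads within those pairs is uncertain.

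Among nuclear protein-coding genes, the 25 with the highest median FPKM were mostly parts of the protein synthesis machinery. EEF1A1, the elongation factor that brings aminoacyl-tRNA to the ribosome, led with 1141, 1456, 1445, 1306 and 1472 FPKM. Ribosomal proteins filled 16 of the 25 places, from RPL13A (1424 FPKM) to RPS6 (504 FPKM), and EEF2, the translocation factor, stood in the third place at 1287. The glycolytic enzyme GAPDH had values of 693, 897, 1293, 1086 and 1216, lowest in tumour 1. ACTG1 and ACTB, the cytoplasmic actins, had medians of 712 and 623, and FTH1, the heavy chain of ferritin, 505.

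The remaining members of that group were KLK3, GDF15 and CKB. GDF15, a secreted stress-responsive member of the TGF-beta family, had values of 451, 301, 1036, 747 and 713 FPKM. It was the most uneven of the 25 genes, with a 3.37-fold range on the scaled CPM scale. It was low in tumours 1 and 2 and high in tumours 3, 4 and 5. CKB, the brain-type creatine kinase, had values of 452, 491, 816, 604 and 689 and followed the same split between tumours. The 25 genes together held 5.97% to 6.94% of the counts in a library, and the 50 most abundant genes of any kind held 13.8% ± 1.01 (SD, n = 5).

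**Figure D1:**
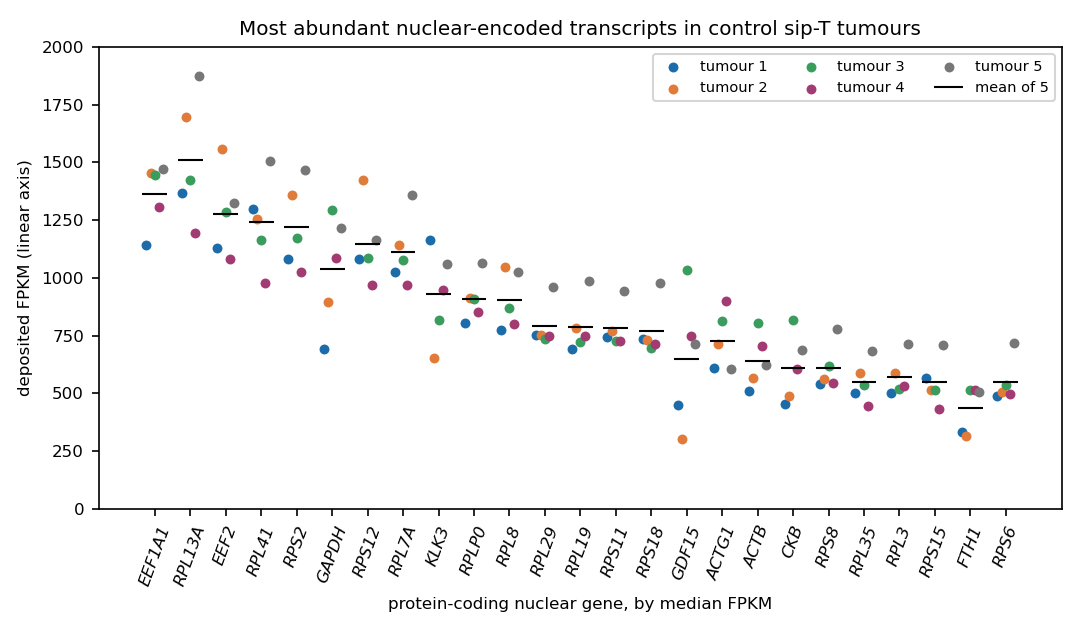
Deposited FPKM (linear axis from 0) of the 25 protein-coding nuclear genes with the highest median, with a point for each of the 5 control sip-T tumours and a line at their mean. EEF1A1 lies between 1141 and 1472 FPKM, KLK3 between 653 and 1166, and GDF15, with the widest fold range, between 301 and 1036.

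Of the long noncoding RNAs, the 5 with the highest median were AC092535.4 (292 FPKM), SNHG19 (215), DANCR (146), MALAT1 (130.0) and LRRC75A-AS1 (87.4). SNHG19, DANCR and LRRC75A-AS1 are host genes of small nucleolar RNAs, and MALAT1 is a nuclear RNA that is abundant in most cells. AC092535.4 is annotated as antisense and LRRC75A-AS1 is named so, and no label says whether the counting used strand, so their reads cannot be told from those of their partners.

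Of 19 long noncoding RNAs linked to prostate cancer, 8 were expressed, beside 5.42% of all lincRNAs and 10.04% of all antisense genes. SCHLAP1, linked to metastatic disease, had values of 11.7, 15.6, 28.6, 13.04 and 5.62 FPKM, highest in tumour 3 and lowest in tumour 5. ARLNC1, an androgen-regulated RNA, had 1.56, 1.67, 1.64, 1.67 and 1.30 and was even across the tumours. PCA3, the RNA used as a urine marker, had a median of 0.245 FPKM, PCGEM1 of 0.184 and DRAIC of 0.212, all below 1 FPKM in every tumour, and HOTAIR and MEG3 had medians of 0.

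Genes of the luminal prostate were mostly expressed and those of other lineages mostly were not. Of 16 genes for secreted and surface proteins of the prostate, 13 were expressed (81.2%, beside 49.5% of all protein-coding genes). KLK4, a further kallikrein, had values of 147, 181, 156, 175 and 239 FPKM, highest in tumour 5. TMPRSS2, an androgen-driven serine protease, had 155, 94.99, 185, 89.4 and 177, with tumours 2 and 4 below the other 3. KLK2 had values of 116, 76.2, 65.9, 106 and 186 and was highest in tumour 5. ACPP, which encodes the prostatic acid phosphatase that sip-T is directed at, had 35.5, 17.4, 33.2, 34.2 and 14.8, with tumours 2 and 5 below the other 3. STEAP1, a metalloreductase at the cell surface, had a median of 171.

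At the low end of the same list stood genes of the normal secretion. MSMB, a major protein of seminal fluid, had values of 3.61, 0.653, 0.385, 2.61 and 1.71 FPKM, under 1 in tumours 2 and 3. TGM4, the prostate transglutaminase, had a median of 0.0232, and NPY, a neuropeptide made by some prostate cancers, a median of 0. The cation channel TRPM8 had 8.35, 6.09, 57.4, 6.26 and 26.3 and the surface transporter SLC45A3, prostein, 67.9, 40.1, 15.4, 42.7 and 36.8. TRPM8 and SLC45A3 were the variable members of the list, a word used here for a difference of at least 4-fold (2 on the log2 scale) between the highest and the lowest tumour in a gene with a mean of at least 5 CPM, which held for 528 of 11640 genes (4.54%) and for 479 of 10639 protein-coding genes (4.5%).

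Of 16 transcription factors of the lineage, 12 were expressed, beside 49.5% of all protein-coding genes. HOXB13 had values of 149, 146, 165, 119 and 127 FPKM. GATA2 had 94.7, 115, 133, 127 and 90.0. FOXA1, a pioneer factor that opens chromatin, had 125, 139, 85.5, 80.4 and 58.4, highest in tumours 1 and 2 and lowest in tumour 5. ETV1, an ETS factor whose locus is rearranged in LNCaP, had 44.6, 36.7, 37.1, 69.2 and 48.4.

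ERG, the ETS factor most often rearranged in prostate cancer, had a median of 0 and at most 0.0255 FPKM. HOXA13 had at most 0.0210, and HOXD13 had no count in any tumour. SOX9 was the 1 variable member, at 6.79, 1.37, 9.39, 11.03 and 9.46, with tumour 2 far below the rest.

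Genes that androgen is known to induce were expressed in 30 of 33 cases (90.9%, beside 49.5% of all protein-coding genes). NDRG1, a stress and androgen response gene, had values of 42.6, 61.4, 213, 167 and 91.7 FPKM, low in tumours 1 and 2. FKBP5, a co-chaperone of steroid receptors, had 19.4, 18.5, 11.2, 20.2 and 37.2, lowest in tumour 3 and highest in tumour 5. STEAP4 and HPGD had medians of 0.157 and 0.0871, although HPGD reached 3.38 in tumour 1. Of the members with a mean of at least 5 CPM, 4 of 31 were variable, NDRG1, KRT19, MAF and AZGP1, beside 4.5% of all protein-coding genes.

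Luminal epithelial genes were expressed in 14 of 16 cases, beside 49.5% of all protein-coding genes. The simple keratin KRT18 had values of 100.2, 118, 119.8, 150.2 and 172 FPKM and made 48.9% ± 5.25 of the summed FPKM of 5 simple keratin genes (SD, n = 5). Its partner KRT8 had 82.6, 84.2, 102, 153 and 127 and made 40.1% ± 2.36. KRT19 had 14.4, 9.41, 41.5, 52.3 and 42.3, and KRT7 a median of 0.0915, but KRT7 overlaps KRT86 on its strand. CLDN3, a tight junction gene, had 96.8, 78.6, 276, 131 and 167. CLDN4 had 51.0, 52.6, 163, 84.6 and 82.1. KRT19, CLDN3 and CLDN4 were each higher in tumours 3, 4 and 5 than in tumours 1 and 2. This split was noted after the values were seen, and how many of all genes follow it was not counted. Over the 14 luminal genes with a mean of at least 5 CPM, tumours 1 to 5 lay at -0.27, -0.26, 0.44, 0.20 and -0.09. These are median log2 differences from the gene means, less that of all protein-coding genes. CDH1, the epithelial cadherin, had 56.2, 58.6, 90.0, 74.2 and 48.6, and PROM1, a surface gene of some epithelial progenitors, a median of 0.00849.

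Basal cell genes were expressed in 3 of 16 cases, beside 49.5% of all protein-coding genes. TP63, the factor that defines basal cells, had no count in any tumour, and KRT5 and GSTP1 had medians of 0. KRT14, the partner of KRT5, was present all the same, at 20.5, 7.39, 9.97, 32.8 and 17.8 FPKM. ITGA6, a laminin receptor subunit, had 6.81, 9.58, 1.83, 11.3 and 5.48. ITGB4, its partner, had 2.25, 0.514, 4.21, 2.36 and 1.97. Of the 7 members with a mean of at least 5 CPM, 5 were variable, beside 4.5% of all protein-coding genes. Tumour 2 was the lowest in 5, beside 16.0%.

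Of 16 neuroendocrine genes, 3 were expressed, beside 49.5% of all protein-coding genes. SYT4, a synaptotagmin of neurons and endocrine cells, was abundant at 118, 171, 248, 333 and 150.3 FPKM, highest in tumour 4. DLL3, a Notch ligand of neuroendocrine tumours, had 7.10, 7.05, 4.15, 4.19 and 5.42. ENO2, the neuronal enolase, had 12.9, 6.17, 18.9, 33.5 and 11.5, but it overlaps LRRC23 on its strand. The defining secretory granule genes were near 0: CHGA had a median of 0.0829, CHGB of 0 and SYP of 0.424. GRP, a neuropeptide, had no count in any tumour.

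Mesenchymal genes were expressed in 2 of 16 cases, beside 49.5% of all protein-coding genes. FN1 (fibronectin) had values of 14.9, 24.6, 70.6, 65.1 and 17.1 FPKM, high in tumours 3 and 4. SNAI1, a repressor of epithelial genes, had 1.39, 3.01, 1.65, 1.84 and 1.65. TWIST1, a transcription factor of mesenchymal cells, had 56.9, 12.1, 0.559, 13.6 and 24.9, so that tumour 1 was highest and tumour 3 lowest. VIM (vimentin) had 2.32, 1.097, 0.955, 5.74 and 5.05. LOX, a collagen cross-linking enzyme, had 31.6, 3.59, 0.330, 0.424 and 1.33, highest in tumour 1. The 4 members with a mean of at least 5 CPM, FN1, TWIST1, VIM and LOX, were all variable, beside 4.5% of all protein-coding genes. TWIST1 and LOX were highest in tumour 1, FN1 in tumour 3 and VIM in tumour 4. CDH2 had no count in any tumour, and ZEB1 and ZEB2 had medians of 0.0186 and 0.0252.

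Genes that mark other cells were mostly not expressed. In bulk tumours, fewer cells of a type and less RNA per cell cannot be told apart, and mouse cells enter these values only where their reads were assigned to human genes. Of 16 fibroblast and matrix genes, 4 were expressed. COL6A1, a chain of collagen VI, had values of 65.9, 62.2, 73.4, 48.2 and 73.7 FPKM, COL6A2 a median of 10.9, TAGLN of 3.79 and COL1A1 of 2.47. The defining fibroblast genes were near 0, with DCN at a median of 0.00501, COL1A2 and LUM at 0, and POSTN without a count in any tumour.

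Endothelial genes were expressed in 1 of 16 cases, EGFL7 at a median of 9.14 FPKM, while CDH5 had 0.0211, PECAM1 a median of 0 and KDR no count. Erythroid genes were expressed in 0 of 14 cases, with HBB at most at 0.0410. Of skeletal muscle and skin genes, MB (myoglobin, median 17.9) and KRT10 (14.4) were expressed, while ACTA1 had a median of 0.258 and KRT1 of 0. Of 16 liver genes, 1 was expressed, and ALB (albumin) had a median of 0.0187.

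Leukocyte genes were scarce in each of the 5 tumours. No T cell gene (0 of 15), no NK cell or cytotoxicity gene (0 of 16) and no gene of monocytes, macrophages and dendritic cells (0 of 16) was expressed. Of 15 B cell genes 1 was, VPREB3 at a median of 1.60 FPKM. MS4A1, which defines B cells, and CD1C and CLEC9A, which define dendritic cells, had no count in any tumour.

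The small sums that remained differed between tumours. The summed CPM of the 15 T cell genes was 6.04, 6.16, 16.4, 4.75 and 4.94 in tumours 1 to 5. That of the 16 NK cell and cytotoxicity genes was 4.64, 1.73, 16.2, 1.37 and 4.28. That of the 16 myeloid genes was 3.98, 3.67, 7.44, 3.44 and 3.82. Tumour 3 was highest in all 3 sums, but not in that of the B cell genes, which was 5.90, 4.91, 3.75, 4.69 and 5.73. Single genes gave few reads even there: CD3E, a chain of the T cell receptor complex, had 0, 1, 18, 0 and 0 counts and CD3D 1, 1, 9, 0 and 1. PRF1 (perforin) had 1, 1, 28, 3 and 5 counts and GZMA (granzyme A) 1, 0, 12, 1 and 0.

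**Figure D2:**
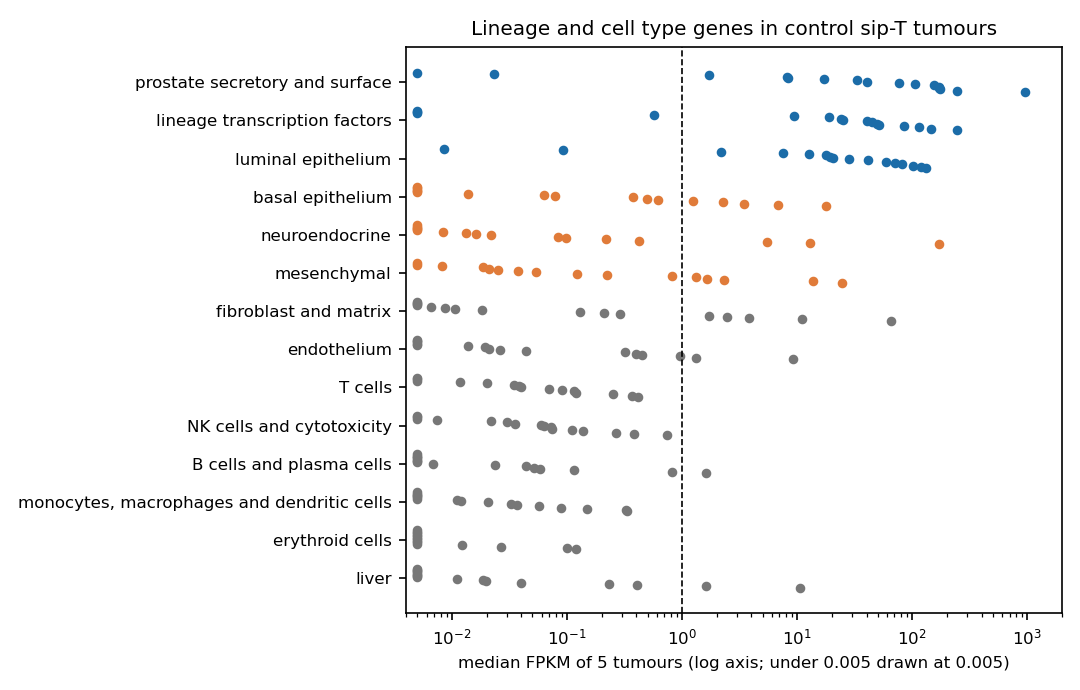
Median deposited FPKM over the 5 tumours (log axis; values under 0.005 drawn at 0.005) of each member of 14 lineage and cell type lists, with a dashed line at 1 FPKM. Prostate, lineage factor and luminal genes (blue) lie mostly above the line, basal, neuroendocrine and mesenchymal genes (orange) mostly below it, and genes of other cells (grey) nearly all below it.

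Cancer testis antigens, which are silent in most normal tissues, were expressed in 5 of 17 cases, beside 49.5% of all protein-coding genes. MAGEA3 had values of 67.1, 75.4, 87.9, 87.6 and 84.3 FPKM and was even across the tumours. MAGEA6 had a median of 49.2, but MAGEA3 and MAGEA6 are near-identical copies whose reads could be split between them, and the GAGE and SSX genes are copies of this kind too. PAGE1 had 74.9, 176, 113, 7.00 and 42.8, higher in tumours 1 to 3 than in tumours 4 and 5. MAGEA1 had 13.2, 35.3, 5.17, 0.156 and 2.79, with tumour 4 far below the rest. PRAME had 22.0, 18.98, 15.7, 18.8 and 18.8. MAGEA4, CTAG1B and SSX4 had medians of 0.

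Glucose uptake and glycolysis genes were expressed in 19 of 21 cases (90.5%, beside 49.5% of all protein-coding genes). ENO1, the enolase, had values of 267, 342, 576, 463 and 543 FPKM. TPI1, the triosephosphate isomerase, had 247, 329, 459, 346 and 363. LDHA, which makes lactate, had 126, 179.7, 335, 199 and 237. ENO1, TPI1 and LDHA were each highest in tumour 3 and lowest in tumour 1. Over the list, 14 of 20 members with a mean of at least 5 CPM were highest in tumour 3, beside 17.5% of all protein-coding genes, and 12 were lowest in tumour 1, beside 15.1%.

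The glucose transporter SLC2A1 had values of 21.8, 30.2, 50.7, 39.998 and 29.8 FPKM and made 59.0% ± 5.42 of the summed FPKM of the glucose transporter genes (SD, n = 5). SLC2A3, a further transporter, had a median of 0.113, and SLC2A2, that of liver, of 0. HK1, the first enzyme of the pathway, had 18.01, 20.7, 20.4, 21.7 and 16.8. Its paralog HK2 had 8.15, 17.8, 26.9, 28.3 and 9.75, so that HK2 stood above HK1 in tumours 3 and 4 and below it in the other 3.

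Several enzyme families were held almost wholly by 1 gene. PKM made 99.9% ± 0.0851 of the pyruvate kinase total and ENO1 95.3% ± 2.03 of the enolase total (SD, n = 5 here and below). LDHA made 84.3% ± 7.34 of the lactate dehydrogenases and LDHD, the mitochondrial D-lactate enzyme, 11.8% ± 7.61. LDHB made 3.93% ± 1.66, but it overlaps another gene on its strand. SLC16A1 made 89.6% ± 1.92 of the monocarboxylate transporters, and SLC16A3, known as the hypoxia-induced exporter, 4.099% ± 1.87. ALDOC held 85.2% ± 1.96 of the aldolases and ALDOA 14.6% ± 2.06, but ALDOA shares its position and strand with AC093512.2, so this split is uncertain. Of the kinases that inhibit pyruvate dehydrogenase, PDK3 held 41.8% ± 4.93, PDK1 38.0% ± 9.11 and PDK2 20.1% ± 7.27, with PDK4 at a median of 0 FPKM.

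Genes of the hypoxia response were expressed in 19 of 22 cases, beside 49.5% of all protein-coding genes. BNIP3, a mitophagy receptor, had values of 55.3, 83.8, 153, 117 and 109.7 FPKM. VEGFA, the endothelial growth factor, had 12.6, 13.1, 35.9, 35.4 and 21.6. BNIP3, VEGFA and NDRG1 were each higher in tumours 3 and 4 than in the other 3. CA9, a carbonic anhydrase often used as a hypoxia marker, had 2.27, 0.886, 7.34, 1.70 and 0.425, high in tumour 3 alone. Of the 19 members with a mean of at least 5 CPM, 10 were highest in tumour 3 and 9 in tumour 4, beside 17.5% and 24.0% of all protein-coding genes. Tumour 1 was lowest in 12, beside 15.1%. SLC2A1 is on both the glycolysis and the hypoxia list.

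The citrate cycle was expressed throughout (25 of 25 members). MDH2, the mitochondrial malate dehydrogenase, had values of 79.1, 95.9, 109, 105 and 123 FPKM. IDH2 had 57.1, 74.8, 93.1, 90.4 and 89.6, lowest in tumour 1 as MDH2 was. SLC25A1, the carrier that exports citrate from mitochondria, had 62.3, 76.5, 78.8, 67.1 and 85.9. ACLY, which splits citrate for lipid synthesis, had 65.1, 71.0, 97.0, 74.6 and 45.0, highest in tumour 3 and lowest in tumour 5. IDH3A was the lowest of the list at 2.56, but it overlaps another gene on its strand. A gene was called stable when its range was at most 0.5 on the log2 scale, which held for 3561 of 11640 genes (30.6%), and for 5653 genes without tumour 5. In the citrate cycle 15 of 25 members were stable and none was variable.

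All nuclear genes of the respiratory chain on the list were expressed (29 of 29). ATP5F1B, the catalytic subunit of the ATP synthase, had values of 370.3, 490.2, 482, 503 and 452 FPKM. COX8A, a subunit of cytochrome c oxidase, had 303, 346, 418, 268 and 451, highest in tumour 5 and lowest in tumour 4. Of these 29 genes, 18 were stable, beside 30.6% of all genes with a mean of at least 5 CPM, and none was variable. Tumour 5 was highest in 18, beside 26.4% of all protein-coding genes. NDUFA13 (median 1.90) and NDUFA9 (2.01) were lowest, but both overlap other genes on their own strand.

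Pentose phosphate genes were expressed in 10 of 11 cases. TALDO1, the transaldolase, had values of 50.6, 79.1, 89.5, 50.8 and 98.2 FPKM, lower in tumours 1 and 4 than in the other 3. The exception was TKTL1, a transketolase-like gene, at a median of 0.389.

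Of the 21 genes of fatty acid synthesis, 16 were expressed, beside 49.5% of all protein-coding genes. FASN, the fatty acid synthase, had values of 198, 245, 317, 259 and 475 FPKM, highest in tumour 5. ELOVL5, an androgen-regulated elongase, had 239.7, 174, 219, 295 and 242. SCD, the stearoyl-CoA desaturase, had 116, 90.4, 191, 124 and 111, highest in tumour 3. FADS2, a further desaturase, had 81.7, 48.9, 119, 49.0 and 172 and was highest in tumours 3 and 5. ACACA made 93.1% ± 0.684 of the acetyl-CoA carboxylase total and SCD 99.2% ± 1.11 of the stearoyl-CoA desaturases. ACSL1 and ACSL3, which activate fatty acids, held 52.5% ± 11.1 and 44.0% ± 11.3 of their family. MLXIPL, a carbohydrate response factor, and ELOVL2 were lowest, with medians of 0.380 and 0.0474.

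Every gene of cholesterol synthesis on the list was expressed (23 of 23). FDFT1, squalene synthase, had values of 52.1, 44.1, 78.8, 72.9 and 77.6 FPKM, lowest in tumours 1 and 2. Of the 23 members, 12 were lowest in tumour 2, beside 16.0% of all protein-coding genes. EBP, an isomerase of the pathway, had 42.4, 186, 50.2, 36.2 and 60.0 and was the 1 variable member, highest in tumour 2. CYP51A1, at a median of 1.86, overlaps other genes on its strand.

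Fatty acid oxidation genes were expressed in 20 of 22 cases. ACADVL, the very-long-chain dehydrogenase, had values of 82.5, 67.2, 120.0, 103 and 150.3 FPKM, highest in tumour 5. CPT1A, the gate of mitochondrial import, had 22.8, 22.6, 28.6, 22.8 and 29.4 and made 93.1% ± 2.25 of the CPT1 total. AMACR, a peroxisomal racemase used as a prostate cancer stain, had 18.4, 7.96, 15.1, 26.3 and 17.1, lowest in tumour 2. ACADM had 96.0, 84.1, 19.9, 20.8 and 21.4, high in tumours 1 and 2, but it overlaps RABGGTB on its strand, so this pattern is uncertain. PPARGC1A, a coactivator of mitochondrial genes, had a median of 0.0297. Of the lipid droplet coat genes, PLIN3 held 95.3% ± 1.19 and PLIN2 0.834% ± 0.302.

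Of 21 genes on the list of androgen synthesis and glucuronidation, 6 were expressed, beside 49.5% of all protein-coding genes. These 6 include the glucuronidating enzymes UGT2B17 and UGT2B15, which do not make androgens. CYP17A1 had a median of 0, HSD3B2 and HSD17B3 had no count in any tumour, and HSD3B1 had a median of 0.235 FPKM. AKR1C3, which makes testosterone from its precursor, had a median of 0.0354. Of the steroid 5-alpha reductases, SRD5A3 held 71.0% ± 4.75 and SRD5A1 29.0% ± 4.72, and SRD5A2, the main enzyme of the normal prostate, had a median of 0.0115 FPKM. The glucuronidating enzyme UGT2B17, which inactivates androgens, had 13.9, 4.02, 14.5, 55.2 and 6.46. UGT2B15 had 6.27, 3.19, 7.45, 25.8 and 4.69. Both were highest in tumour 4 and lowest in tumour 2, and as close copies they may share reads.

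Polyamine genes were expressed in 13 of 16 cases. ODC1, the rate-limiting enzyme, had values of 171, 265, 277, 242 and 319.8 FPKM. OAZ1, its antizyme, had 225, 259, 288, 208 and 303. SRM, spermidine synthase, had 134, 176, 164, 128 and 183. ODC1, OAZ1 and SRM were each highest in tumour 5. SAT1, which starts polyamine breakdown, had 40.6, 19.9, 43.9, 60.8 and 48.9 and was lowest in tumour 2. Of the arginases, ARG2 had 14.8, 5.21, 2.79, 4.12 and 0.587, highest in tumour 1 and lowest in tumour 5, and ARG1 a median of 0.354.

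Amino acid and one-carbon genes were expressed in 23 of 29 cases. SHMT2, which feeds mitochondrial one-carbon metabolism, had values of 48.0, 79.5, 114, 79.8 and 80.9 FPKM, highest in tumour 3. PYCR1, for proline, had 56.9, 70.5, 67.5, 66.2 and 93.5. PSAT1, for serine, had 50.2, 63.2, 68.3, 60.2 and 60.6 and varied little. ASS1, the argininosuccinate synthase, had 12.7, 15.7, 59.6, 28.8 and 10.5, highest in tumour 3. PRODH, which breaks down proline, had a median of 0, and BCAT1 of 0.00974. GATM, which starts creatine synthesis, had a median of 0.161, beside 50.1 for GAMT, the next enzyme.

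Of the amino acid transporters, 10 of 14 were expressed. SLC3A2, the heavy chain of several exchangers, had values of 31.9, 35.1, 51.8, 48.8 and 62.7 FPKM. SLC43A1, a leucine transporter known from prostate cancer, had 24.0, 39.4, 33.7, 19.1 and 91.7, with tumour 5 above the other 4. SLC7A5, the common partner of SLC3A2, had 0.918, 0.935, 1.69, 2.63 and 0.734, under 1 in 3 tumours, and SLC6A14 had no count in any tumour.

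Zinc and metallothionein genes were expressed in 9 of 16 cases, near the 49.5% of all protein-coding genes. The zinc transporter SLC39A7 had values of 44.0, 40.2, 40.2, 31.3 and 44.8 FPKM. SLC39A6 had 39.6, 38.7, 42.4, 44.6 and 26.6, lowest in tumour 5. SLC39A1, an importer of the normal prostate, had a median of 0.820, but it overlaps other genes on its strand. The metallothionein MT2A had 37.6, 25.2, 24.7, 27.7 and 35.1, while MT1E had a median of 0 and MT1M no count in any tumour, and these genes are close copies.

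Glutathione and redox genes were expressed in 17 of 22 cases. GPX1, a glutathione peroxidase, had values of 219, 250.1, 247, 204 and 316 FPKM, highest in tumour 5. GPX4, which reduces lipid peroxides, had 152, 206, 204, 149.8 and 206. PRDX1, a peroxiredoxin, had 159, 199.6, 245, 181 and 211, highest in tumour 3. GSTP1 and GSTM1, detoxifying transferases, had medians of 0. Of 12 iron genes, 9 were expressed. FTH1 had 333, 318, 517, 515 and 505, lower in tumours 1 and 2 than in the other 3. FTL, the light ferritin chain, had 416, 324, 398, 501 and 382, and SLC40A1, the iron exporter, a median of 0.

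Ribosomal protein genes were all expressed (30 of 30), with a summed FPKM of 13201, 15380.3, 13928, 12591 and 17806 in tumours 1 to 5. Tumour 5 was highest in 26 members and tumour 4 lowest in 23, beside 26.4% and 24.3% of all protein-coding genes, although none was variable. On the log2 scale the median difference from the gene means, less that of all protein-coding genes, was 0.33 in tumour 5 and -0.21 in tumour 4.

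Genes of the secretory pathway and the unfolded protein response were expressed in 25 of 25 cases. CALR, a chaperone of the endoplasmic reticulum, had values of 213, 286, 192, 185 and 229 FPKM. HSPA5, known as BiP, had 124, 168, 77.9, 103 and 102 and was lowest in tumour 3. CREB3L1, a membrane-bound transcription factor, was the variable member, at 18.9, 4.79, 2.11, 14.1 and 31.7, also lowest in tumour 3. All 16 heat shock genes were expressed. HSPB1, a small heat shock protein, had 361, 502, 661, 451 and 695. HSP90AB1 had 386, 491, 470.0, 418 and 432. HSPB1 was higher in tumours 3 and 5 than in the others, while HSP90AB1 moved little.

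Cell cycle genes were expressed in 35 of 36 cases. PCNA, the replication clamp, had values of 87.5, 84.4, 107, 67.0 and 125 FPKM. CCNB1, the mitotic cyclin, had 50.0, 54.8, 50.4, 25.6 and 60.1. MKI67, the proliferation marker, had 10.0, 12.7, 14.4, 6.50 and 10.0. PCNA, CCNB1 and MKI67 were each lowest in tumour 4. This tumour was lowest in 30 of 36 members of the list, beside 24.3% of all protein-coding genes, and its median difference on the log2 scale, less that of all protein-coding genes, was -0.48. CDK6 was the member not expressed, at 0.650, 1.08, 0.165, 0.170 and 2.12, while its paralog CDK4 had 24.9, 32.0, 28.5, 25.6 and 33.9. Of the D cyclins CCND1 held 80.7% ± 4.51, CCND3 19.2% ± 4.49 and CCND2 0.143% ± 0.0726.

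**Figure D3:**
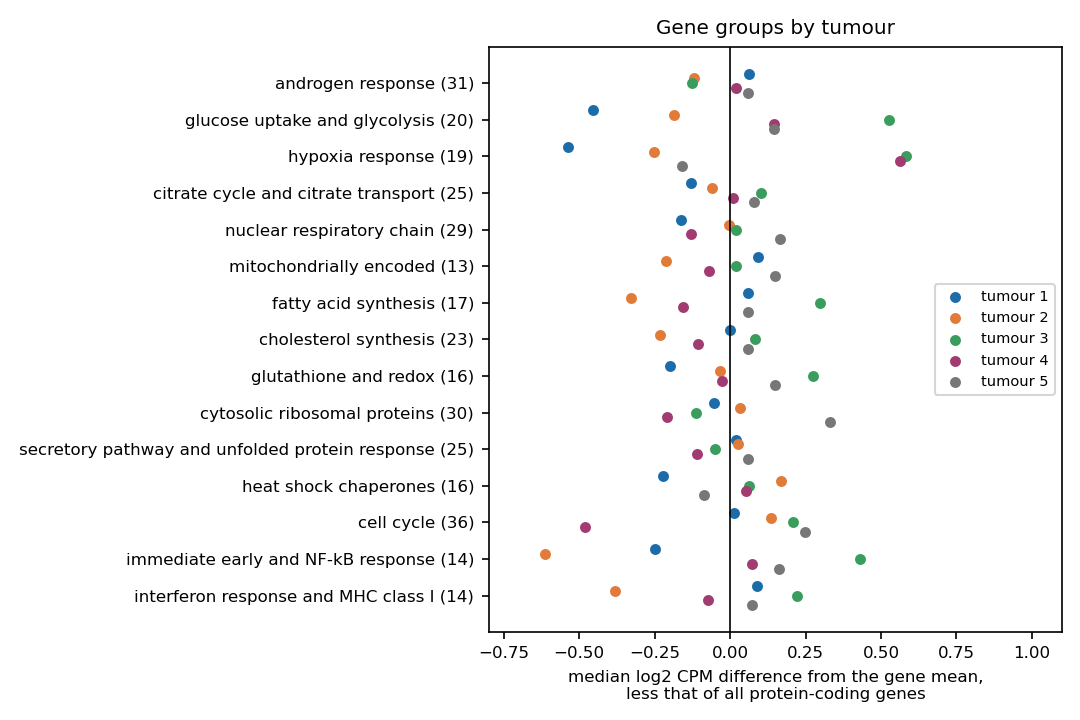
Median difference of log2 CPM from the gene's mean over the 5 tumours, less that of all protein-coding genes, for 15 gene groups (number of members with a mean of at least 5 CPM in brackets), with a point for each tumour. Hypoxia genes lie at 0.58 in tumour 3 and -0.54 in tumour 1, cell cycle genes at -0.48 in tumour 4, and ribosomal protein genes at 0.33 in tumour 5.

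Immediate early and NF-kB genes were expressed in 12 of 24 cases (50.0%, near the 49.5% of all protein-coding genes). JUND, an AP-1 subunit, had values of 143, 136, 223, 178 and 207 FPKM. MYC had 59.6, 92.5, 60.4, 81.8 and 83.4 and held 93.3% ± 1.87 of the MYC family total. EGR1 had a median of 0.161 and the cytokine IL6 of 0, and CXCL1 had no count in any tumour. Of the 14 members with a mean of at least 5 CPM, tumour 2 was lowest in 8 and tumour 3 highest in 8, beside 16.0% and 17.5% of all protein-coding genes.

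Interferon and MHC class I genes were expressed in 14 of 30 cases (46.7%, also near the 49.5% of all protein-coding genes). B2M, the light chain of MHC class I, had values of 35.2, 19.2, 25.1, 29.6 and 29.3 FPKM, lowest in tumour 2. ISG15, a ubiquitin-like protein, had 49.6, 44.6, 66.0, 44.4 and 57.1. TAP1, the peptide transporter, had 4.12, 3.01, 5.39, 3.68 and 3.87. ISG15 and TAP1 were both highest in tumour 3. HLA-C had a median of 56.1 and HLA-B of 8.85, but these genes vary between people and share sequence, so their reads can be lost or split. The immunoproteasome genes PSMB8 and PSMB9 had medians of 0.0644 and 0.189, and the interferon-gamma targets GBP1, CXCL9 and IDO1 of 0.0517, 0.0209 and 0.0396. Of the 14 members with a mean of at least 5 CPM, 10 were lowest in tumour 2 and 9 highest in tumour 3, beside 16.0% and 17.5% of all protein-coding genes, and none was variable. Tumour 3 also had the highest sums of T cell and NK cell genes (16.4 and 16.2 CPM), and their part in this was not tested.

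Of 18 tumour suppressor and repair genes, 17 were expressed. RB1, which restrains entry into the cell cycle, had values of 5.97, 5.06, 8.25, 9.81 and 3.44 FPKM, lowest in tumour 5. MSH6, a mismatch repair gene, had a median of 3.09.

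Growth factor and receptor genes were expressed in 10 of 24 cases (41.7%, beside 49.5% of all protein-coding genes). IGFBP2, a binding protein of insulin-like growth factors, had values of 31.7, 47.5, 23.8, 69.7 and 80.6 FPKM. IGF1R, their receptor, had 3.61, 10.1, 2.86, 1.07 and 2.20, highest in tumour 2, and was variable. Of the ERBB receptors, ERBB3 held 39.5% ± 5.09, ERBB2 33.3% ± 7.69 and EGFR 27.2% ± 8.84 of the family total, with ERBB4 at a median of 0.00440 FPKM. MET had a median of 0.0179, KIT of 0.0231 and AREG of 0. Of 22 nuclear receptors, 15 were expressed. NR2F6, an orphan receptor, had the highest median of the list, with 72.2, 92.1, 84.3, 78.6 and 108 FPKM. NR3C1, the glucocorticoid receptor, had 0.106, 0.750, 0.151, 0.379 and 0.0985, below 1 in every tumour. PGR had a median of 0.0174 and ESR1 of 0.

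Silent genes, with 0 counts in each of the 5 tumours, numbered 20544 of 58216 (35.3%) and 2048 of 19906 among protein-coding genes (10.3%). With at most 3 counts in each tumour, 4460 protein-coding genes (22.4%) were near silence. Silence was more frequent outside protein-coding genes: 51.8% of processed pseudogenes, 44.8% of lincRNAs, 71.7% of miRNA genes and 64.7% of snoRNA genes had no count. Silent members of the lists included TP63 among basal genes, HOXD13 among lineage factors, CDH2 among mesenchymal genes, KDR among endothelial genes, POSTN among matrix genes and ICOS among T cell genes. Further ones included NCR3 of NK cells, MS4A1 and FCRL1 of B cells, C1QC, CD1C and CLEC9A of myeloid cells, AHSP and the globins HBD, HBA2, HBG1 and HBG2 of erythroid cells, LOR of skin, and APOA2 and FGG of liver. HSD3B2, HSD17B3, SLC6A14, MT1M, CXCL1 and GRP belong to the metabolic, response and neuroendocrine lists above. A silent gene had at most 0.172 to 0.208 CPM by the limit given for 3 counts.

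The 5 tumours differed by less than 4-fold in most genes. Over 11640 genes with a mean of at least 5 CPM the median range was 0.66 on the log2 scale (1.58-fold), and the median coefficient of variation was 18.5%. The median biological coefficient of variation, which takes out counting error, was 0.232. The 10 protein-coding genes with the smallest range were TTC13, VPS53, PTPN2, AAMP, PDCD6, FCF1, BTF3L4, GRHPR, SUPT6H and DBR1. TTC13 led with a range of 0.04 on the log2 CPM scale, where tumour 1 was highest. Its FPKM values were 5.27, 5.59, 5.67, 5.46 and 5.53, with tumour 1 lowest. AAMP was the most abundant of these 10, at 35.7, 38.8, 39.5, 37.0 and 38.3.

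The 30 protein-coding genes with the widest range had log2 ranges of 5.89 to 11.09, and many of them were low even in their highest tumour. BASP1 (chromosome 5, 17065598 to 17276843, plus strand), a membrane protein of nerve endings, had values of 6.67, 184, 0.0855, 0.241 and 0.0291 FPKM, so that it was abundant in tumour 2, low in tumour 1 and near 0 in the other 3. LRRTM3, a synaptic adhesion protein, had 1.02, 0.235, 47.3, 0.725 and 0, high in tumour 3 alone. KCNC2, a potassium channel, had 7.98, 0.815, 0.0585, 2.86 and 35.3, highest in tumour 5. ADRA2A, an adrenergic receptor, had 13.2, 24.1, 0.0506, 8.99 and 1.499, with tumour 3 near 0. SLC5A12, a lactate transporter of the kidney, had 0.958, 0.179, 0.0419, 13.6 and 0.240, high in tumour 4. SLC44A5, a choline transporter-like protein, had 29.1, 9.77, 0.381, 1.64 and 0.113, highest in tumour 1. PCDH11X was among these genes too, but it has a near-identical copy on the Y chromosome, so its values are uncertain and are not given.

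Further genes among the 30 with the widest range were high in other tumours. COL5A1, a fibrillar collagen, had values of 0.574, 7.78, 0.0621, 0.287 and 0.0288 FPKM, highest in tumour 2. FMOD (fibromodulin, which binds collagen) had 9.73, 0.0378, 0.0928, 1.13 and 0.304, highest in tumour 1 as LOX was. MMP16, a membrane metalloproteinase, had 0.857, 7.83, 9.85, 0.0574 and 0.314, high in tumours 2 and 3. ADAMTS6, a secreted metalloproteinase, had 4.24, 1.201, 0.0442, 0.156 and 0.0829, highest in tumour 1. SDC2 (syndecan-2) had 22.5, 2.21, 21.2, 132 and 71.8, lowest in tumour 2 and highest in tumour 4. ASPH, an aspartate hydroxylase, had 2.79, 57.8, 7.35, 0.403 and 1.82, highest in tumour 2.

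SEMA3D, an axon guidance factor, had 0.192, 2.35, 6.89, 0.113 and 0.0160 FPKM, high in tumours 2 and 3. SLITRK3, a synaptic adhesion protein, had 9.27, 7.81, 4.85, 0.0984 and 0.435, high in tumours 1 to 3. NLGN4X, a neuroligin, had 4.02, 9.23, 6.28, 5.29 and 0.0607 and was near 0 in tumour 5, with the caution that it has a copy on the Y chromosome. The other genes of the 30, beside MAGEA1 and TWIST1 above, were CCDC85A, SDK1, PLA1A, PKNOX2, PRKAR2B, DNAJC15, NEFL, SLC22A2, SLC4A4, FIBIN and KCNH8, with log2 ranges from 5.95 to 8.21.

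**Figure D4:**
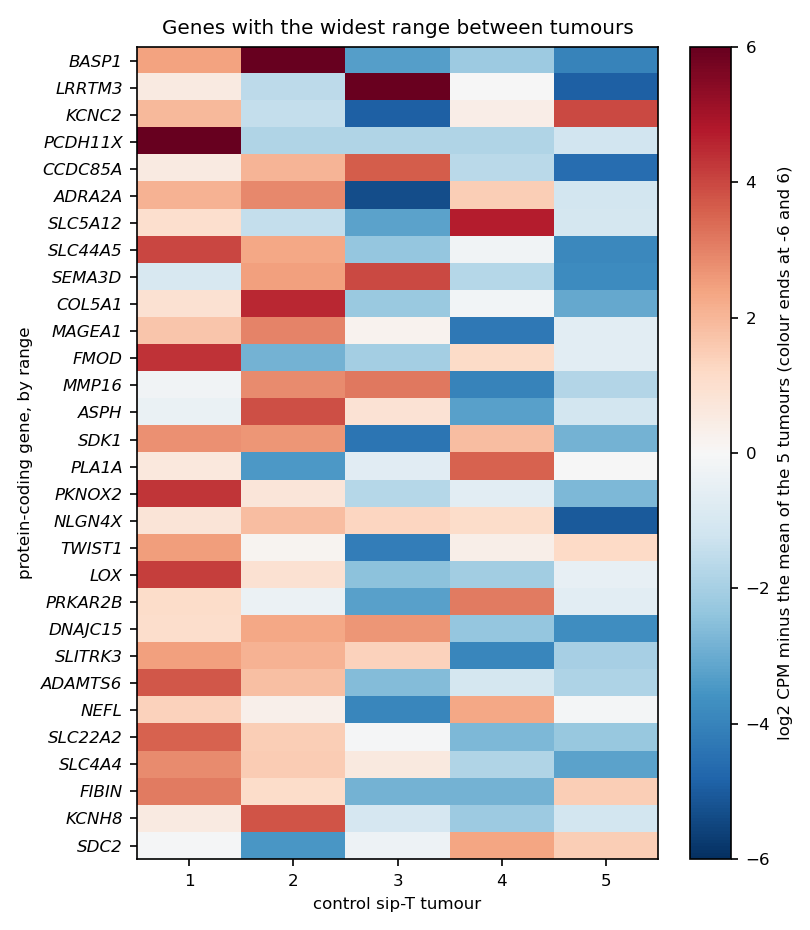
Log2 CPM less the gene's mean over the 5 tumours, as colour (red above, blue below, with the colour scale ending at 6 in either direction), for the 30 protein-coding genes with the widest range, with tumours in columns. BASP1 is red in tumour 2, LRRTM3 in tumour 3 and SLC5A12 in tumour 4, and no tumour is red throughout.

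The variable genes were unevenly divided between the tumours. Of the 528, 161 were highest in tumour 1, 66 in tumour 2, 106 in tumour 3, 149 in tumour 4 and 46 in tumour 5. Lowest values fell in tumours 1 to 5 in 49, 125, 119, 88 and 147 of them. Tumour 1 was thus highest in 30.5% of the variable genes, beside 16.1% of all protein-coding genes, and tumour 5 in 8.71%, beside 26.4%. Among protein-coding genes, 14 stood at least 8-fold above the next tumour, 6 of them in tumour 1 and 5 in tumour 2. As many stood at least 8-fold below the next tumour, 7 of them in tumour 3. PPP1R37, a regulator of protein phosphatase 1, had values of 107, 7.41, 5.53, 4.12 and 6.70 FPKM, with tumour 1 far above the rest. RGS4, a regulator of G protein signalling, had 2.20, 4.83, 2.39, 90.4 and 7.86, high in tumour 4. IFITM2, an interferon-induced membrane protein, had 8.84, 8.96, 6.34, 0.659 and 8.45, low in tumour 4. PPP1R37, RGS4 and IFITM2 were taken from those genes after their values were seen.

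The differences between tumours were also arranged by chromosome, a pattern that was chosen for description after the values had been seen. For each protein-coding gene with a mean of at least 5 CPM (10639 genes), the log2 CPM in a tumour was set against the gene's mean, and medians were taken per chromosome. The medians of the 5 tumours spread over 0.17 in a median chromosome of 23. The widest spreads were 0.67 for chromosome 13, 0.48 for chromosome 11 and 0.48 for chromosome 21.

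On chromosome 13, tumour 4 lay 0.43 above the gene means (1.35-fold), and it was highest in 112 of 176 genes, beside 24.0% of all protein-coding genes. Blocks of 10 Mb were counted, here and below, where they held at least 5 of these genes. All 8 such blocks on chromosome 13 had tumour 4 as the highest. On chromosome 11, tumour 4 had a median of -0.33 and was lowest in 399 of 617 genes, beside 24.3%. It was below the mean in all 14 blocks and lowest in 13 of them. On chromosome 21, tumour 3 had a median of 0.36, was highest in 79 of 107 genes, beside 17.5%, and was highest in 4 of 5 blocks.

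Chromosome 8 was divided. In genes that start within its first 50 Mb, tumour 2 had a median of -0.37 and was lowest in 95 of 141 (67.4%), beside 16.0% of all protein-coding genes. In the genes beyond, tumour 2 had a median of 0.28 and was highest in 137 of 237 (57.8%), beside 16.0%. Tumour 2 was lowest in 5 of 5 blocks of the first part and highest in 10 of 10 blocks of the second. Smaller shifts were seen on chromosome 13, where tumour 5 had a median of -0.24 and was lowest in 75 of 176 genes, beside 28.8%. In the first part of chromosome 8, tumour 4 had a median of 0.18. Others were chromosome 14, where tumour 1 had a median of 0.20, and chromosome 19, where tumour 5 had 0.18.

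**Figure D5:**
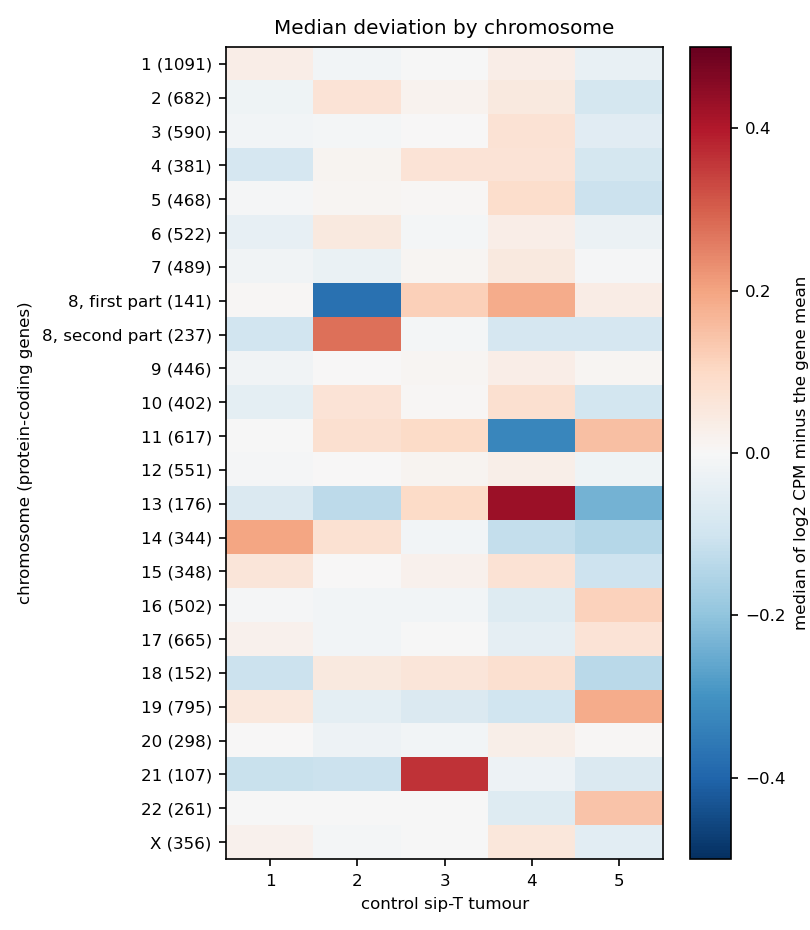
Median over protein-coding genes of log2 CPM less the gene's mean, as colour (red above, blue below), for each chromosome (number of genes in brackets; chromosome 8 in 2 parts) and tumour. The strongest fields are chromosome 13 in tumour 4 (0.43), the first part of chromosome 8 in tumour 2 (-0.37), chromosome 21 in tumour 3 (0.36) and chromosome 11 in tumour 4 (-0.33).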

How the data were processed

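RNA of 5 control sip-T tumours was sequenced on an Illumina platform after TRIzol extraction, per the labels' protocols. Per the submitters' processing notes, the build was hg38 and the tools included HISAT2 2.0.5 and featureCounts 1.5.0-p3, beside fastp, GATK 4.1.1.0 and DESeq2 1.20.0, with no role stated for any. The deposited count table holds whole-number read counts for 58735 human genes, not normalized, per the file headers and values. The FPKM values were deposited by the authors. They follow from the counts, the deposited gene lengths and a library total that was 1.01 to 1.16 times the summed counts. This factor was highest in tumour 1 (1.16) and lowest in tumour 3 (1.01). Relative to the other tumours, FPKM in tumour 1 is therefore lower than CPM on total counts. The order of tumours can differ between FPKM and CPM. No label states how mouse reads were treated or whether counting used strand. The count columns of the 5 other samples were not used.

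Counts were scaled with edgeR 4.0.16 (TMM, R 4.3.3) to log2 CPM with a prior count of 2, after dispersion code was tested on simulated data. Per-gene CPM used the total counts. Y-linked genes and XIST (519 rows) were left out of gene lists. No group was compared, so no p-value is given. The members and lists were chosen with earlier results of these data known: 43 programme lists and 25 families with 857 symbols, of which 4 were not matched. The rule for named genes took the 25 nuclear coding genes and 5 long noncoding RNAs with the highest median FPKM, the mitochondrial genes, 4 members at each end of every list, the families, and the 30 widest and 10 narrowest ranges. Other list members were named for their known role after their values were seen, and so were the counts by tumour and the medians by chromosome. DESeq2 1.42.0 size factors, other thresholds, the deposited FPKM and leaving out each tumour were the alternatives. Some genes that the rule names are not reported here.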

Additional observations from a re-analysis of the deposited data

Results flagged for a closer look

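Values were flagged where the highest or the lowest of the 5 tumours stood apart from the other 4 by more than 0.71 of the whole range, on the log2 CPM scale. Of 178 values examined (genes given by tumour, sums of gene lists and measures of the libraries), 9 were flagged. Some of the genes had been named for their differences between tumours, PPP1R37, IFITM2 and NLGN4X among them. A chance rate of 1 in 20 therefore does not apply to this count. The flagged values fell in every tumour: 2 in tumour 1, 1 in tumour 2, 2 in tumour 3, 3 in tumour 4 and 1 in tumour 5.

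SOX9, a transcription factor, was low in tumour 2, with a gap of 0.799 of the range (6.79, 1.37, 9.39, 11.03 and 9.46 FPKM in tumours 1 to 5). NLGN4X was low in tumour 5, with a gap of 0.843 (4.02, 9.23, 6.28, 5.29 and 0.0607). IFITM2 was low in tumour 4, with a gap of 0.834 (8.84, 8.96, 6.34, 0.659 and 8.45), and CCNB1, the mitotic cyclin, was low there too, with a gap of 0.763 (50.0, 54.8, 50.4, 25.6 and 60.1). PPP1R37 was high in tumour 1, with a gap of 0.826 (107, 7.41, 5.53, 4.12 and 6.70). AAMP, one of the steadiest genes, was lowest in tumour 4 on the CPM scale, with a gap of 0.738 of a range of 0.06 on the log2 scale, although its FPKM was lowest in tumour 1.

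The summed CPM of endothelial genes was 95.6, 45.5, 49.1, 44.6 and 52.5 in tumours 1 to 5. It was highest in tumour 1, with a gap of 0.787. EGFL7 was the only gene of that list that was expressed, and its share of the sum was not tested. The summed CPM of the T cell genes was highest in tumour 3, with a gap of 0.791 (6.04, 6.16, 16.4, 4.75 and 4.94). That of monocytes, macrophages and dendritic cells was highest there too, with a gap of 0.810 (3.98, 3.67, 7.44, 3.44 and 3.82).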

How the results depend on the processing

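The count of variable genes rose from 528 to 1375 with a mean of at least 1 CPM and to 4222 with no filter on low counts, which also took the median biological coefficient of variation from 0.232 to 0.575. The count of silent genes was 32838 with at most 3 counts allowed in every tumour and 2048 among protein-coding genes. The share of the 50 most abundant genes was 9.49% without mitochondrially encoded genes and 30.7% as a share of summed FPKM. Stable genes numbered 5653 without tumour 5, beside 3561 with all 5. Over the 5 fits that each left out 1 tumour, there were 401 to 459 variable genes and 4253 to 5653 stable genes. The biological coefficient of variation was 0.218 to 0.245 and the share 13.3% to 14.1%. Expressed genes numbered 12018 to 12179 and silent genes 21434 to 22324. With fewer tumours, the rules for expressed and silent genes can only admit more genes. Ranges over fewer tumours also tend to be narrower, so the direction of these counts was largely set by the rules. The other planned settings stayed within 1.5 times the reported counts. For the share they stayed within its SD between tumours. For the biological coefficient of variation they stayed within its SD between genes. Over TMM and 3 further scalings (total count, size factors and FPKM, chosen after seeing the data), tumour 5 was highest in 25 to 27 ribosomal protein genes and tumour 4 lowest in 17 to 23. Tumour 4 was lowest in 29 to 30 cell cycle genes, tumour 3 highest in 13 to 14 glycolysis genes and in 6 to 9 interferon and MHC genes. The shares of all protein-coding genes set beside such counts moved too: tumour 1 was lowest in 11.9% to 25.7% of them and highest in 9.87% to 18.98%, tumour 3 highest in 14.5% to 21.9%, tumour 4 lowest in 22.3% to 24.3%, and tumour 5 highest in 21.4% to 27.5%. With FPKM, the median of tumour 4 on chromosome 13 was 0.41 and on chromosome 11 -0.33, and those of tumour 2 on the parts of chromosome 8 were -0.37 and 0.27. No paired analysis was possible because the 5 tumours form 1 group, in which replicate numbers pair nothing. Depth limits what can be said of genes under about 0.208 CPM, the level of 3 counts in the smallest library.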
